A study of Homo sapiens with 4 samples.

Results

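The mRNAs of protein methyltransferases and histone demethylases were examined in RNA recovered with the deacylase SIRT7. The genes were taken by symbol: SETD, KDM, KMT, MLL, EHMT, SUV39H, SUV420H and PRMT families, with NSD1, WHSC1, WHSC1L1, ASH1L, EZH1, EZH2 and DOT1L and without antisense genes. They came to 56 of the 23615 genes in the deposited table. RNA immunoprecipitation (RIP) recovers a protein from a lysate with the RNA bound to it. The RIP libraries hold RNA recovered on anti-Flag gel together with Flag-SIRT7, and the input libraries hold total RNA, with 2 libraries in each group. All 4 libraries come from HEK293T, a human embryonic kidney line that stably overexpresses Flag-SIRT7, and ribosomal RNA was removed from all of them. Whether the line is 1 clone or a pool, and whether the libraries of a group stem from different cultures, is not stated in the labels. The spread behind each p-value is thus that between 2 libraries and may be technical. Untagged cells put through the same pull-down were not analysed here, and the RIP values include whatever RNA sticks to the gel.

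Lysine methyltransferases, most of which carry a SET domain, place methyl groups on histone tails, and the meaning of the mark depends on the residue. Methylation of histone H3 lysine 4 (H3K4) and lysine 36 (H3K36) is found at active genes, whereas methylation of H3K9 and H3K27 is found at silenced chromatin. Protein arginine methyltransferases (PRMTs) act on histones and on many RNA-binding proteins. Demethylases remove these marks, the KDM1 enzymes with a flavin cofactor and the Jumonji enzymes with iron and 2-oxoglutarate. SIRT7 itself acts on histones in the nucleus and nucleolus, which is the setting in which these genes are of interest.

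The libraries held 25655459 and 25998038 fragments on genes in RIP, against 18131596 and 17310755 in input. SIRT7 mRNA, the transcript of the tagged protein, was at 43950 and 43200 CPM (counts scaled to library size with TMM factors) in RIP, against 1148 and 1181 CPM in input. Transgene and endogenous transcripts are counted together in it, and its level does not show that RNA bound to the SIRT7 protein was recovered. Of 17 marker genes looked up for the cell line, all 9 expected ones were detected. Their summed level was 507 and 510 FPKM (the authors' fragment level scaled for length and library) in RIP, against 315 and 344 FPKM in input, with NES and PAX2 below 1 FPKM throughout. The 8 markers of other cell types summed to 2.42 and 2.90 FPKM in RIP, against 3.81 and 3 FPKM in input, and the T cell gene CD3E and the globin gene HBB were at 0 in all 4 libraries.

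Most of these mRNAs were lower in the SIRT7 pull-down than in input. Together the 56 genes took 0.243% and 0.244% of all RIP fragments, against 0.533% and 0.495% of those in input (exact binomial 95% intervals of 0.241% to 0.245%, 0.242% to 0.246%, 0.529% to 0.536% and 0.491% to 0.498%, which cover counting error only). With 2 libraries on each side the smallest exact permutation p is 0.33, so shares are given without a test. Lysine methyltransferases and the other SETD genes, 30 in all, took 0.101% ± 0.000177 in RIP and 0.290% ± 0.0217 in input (SD, n = 2 each). The 18 demethylases took 0.0724% ± 0.00125 in RIP and 0.146% ± 0.00665 in input. The 8 PRMT genes took 0.0699% ± 0.000253 in RIP and 0.0770% ± 0.00147 in input, which were the closest shares of the 3 classes. Every value is relative to the other RNA of its library, and for a low level in either pool of bulk RNA, few expressing cells and little RNA per cell cannot be told apart.

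Of the 56 genes, 53 had enough fragments to be tested with edgeR's quasi-likelihood test on 14555 genes. PRMT8, KDM4E and KDM5D did not pass the filter on low counts. At an adjusted p of 0.05, 10 of the 53 were higher in RIP, 35 were lower and 8 did not pass. Of all tested genes 77.7% were called, 38.0% as higher and 39.7% as lower, so lower calls were more common among these genes (66.0%) and higher calls less common (18.9%). Changes of at least 2-fold were found for 2 higher genes and 13 lower ones, where the background was 17.5% and 19.1%. The values of the 2 groups did not overlap in 48 of the 53 genes, against 89.2% of all tested genes. The median log2 fold change was -0.40, with a range from -2.42 to 1.38, against a median of -0.03 over all tested genes. These directions are relative to the TMM scale (edgeR's trimmed-mean scaling between libraries). Scaling to library totals instead moved the median of all genes to -0.76 and gave 2 higher and 46 lower among the 53 genes. A change of scaling shifts all genes nearly alike, so the gap between the 2 medians stayed at -0.37 and is no check on these directions.

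**Figure D1:**
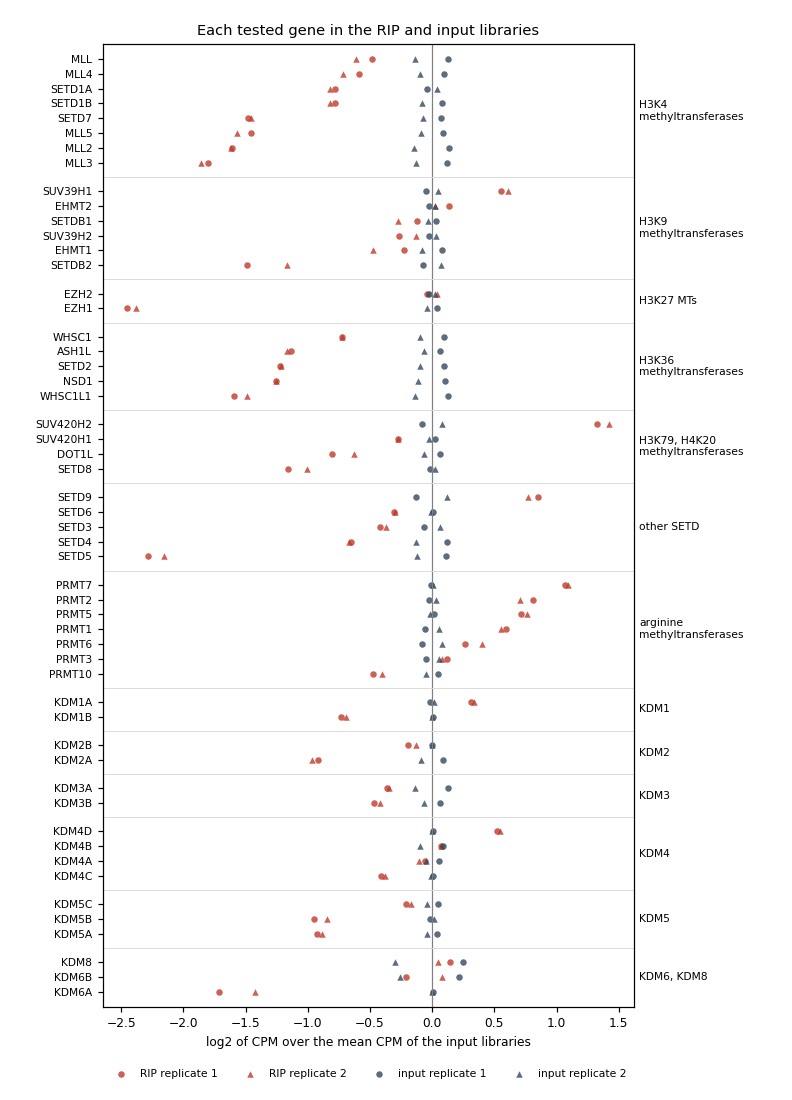
Each point is 1 library. The horizontal axis gives the log2 of a gene's CPM over the mean CPM of the input libraries, with genes grouped by role and ordered by fold change. RIP points (red) lie left of input points (dark blue) for most lysine methyltransferases and right of them for PRMT7, PRMT2, PRMT5, PRMT1 and PRMT6, with SUV420H2 farthest right and EZH1 farthest left.

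The fold changes followed transcript length. The effective length of a transcript, taken from the table as scaled fragments over FPKM, is given here in units of the median tested gene. Of the 53 genes 38 were longer than that median, and their own median was 1.66. Among the 38 longer genes 31 were lower and 2 higher, whereas among the 15 others 4 were lower and 8 higher. Fold change and length had a Spearman rho of -0.72 over the 53 genes and of -0.60 over all 14555 tested genes (descriptions across genes, which share the same libraries). In the 14 genes with a length above 2 and up to 2.83 the median log2 fold change was -0.85, against -0.91 for all 1356 genes of that range. In the 9 genes above 2.83 it was -1.15, against -1.29 for all 776 such genes. The length trend was then taken out with a smoothed curve (lowess, span 0.3) through all tested genes. For the longest genes, such as MLL, MLL2 and MLL3, that curve also drew on shorter ones, and no narrower span was run. Each gene was thus set against the value of the curve at its length. These length-corrected values gave 25 genes higher and 15 lower (47.2% and 28.3%, with a background of 34.7% and 35.5%, and of 70.3% in either direction). Their median was 0.18, against -0.03 for all genes, a gap of 0.21 that shrank to 0.08 with no count filter. Of the 35 lower genes 14 stayed lower, 12 became higher and 9 passed neither side. Of the 10 higher genes 8 stayed higher, 1 became lower and 1 passed neither side. The level of expression followed the fold change less closely (Spearman rho of 0.25 with input FPKM, and of -0.07 after length correction, n = 53).

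**Figure D2:**
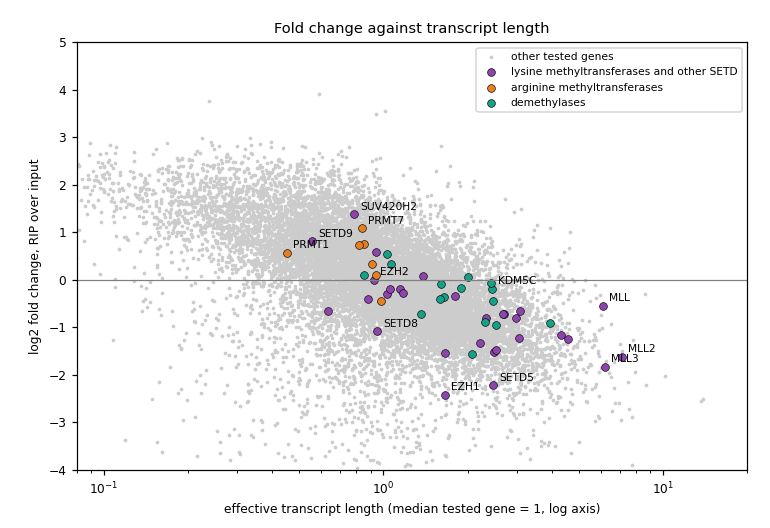
Effective transcript length (horizontal, log axis, median tested gene at 1) against the log2 fold change of RIP over input (vertical) for all tested genes in grey and the 53 genes in colour; 86 other genes lie outside the axes. The tested PRMT genes sit left of the median length, MLL, MLL2 and MLL3 at the far right, and SETD5, EZH1 and SETD8 low for their length, with MLL high for its length.

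All 8 mRNAs grouped here as H3K4 methyltransferases were lower in RIP, by 0.55 to 1.83 on the log2 scale. Their transcripts were long, at 2.33 to 7.16 times the median gene. Of all tested genes 39.7% were lower, and the 776 above a length of 2.83 had a median log2 fold change of -1.29. MLL3 (KMT2C), an enzyme of enhancer monomethylation, was at 36.1 and 34.7 CPM in RIP, against 136 and 115 CPM in input. Its log2 fold change was -1.83 (SE 0.0889, edgeR adjusted p = 3.512e-11). After length correction MLL3 was at -0.14 (adjusted p = 0.07747), and with no count filter at -0.27, which passed (adjusted p = 0.005396). MLL2 was at 26.3 and 26.1 CPM in RIP, against 88.0 and 72.4 CPM in input, a log2 fold change of -1.61. The symbols MLL2 and MLL4 have each been used for KMT2D and for KMT2B, so the deposited names are kept, and in this table MLL2 is the longer of the pair (7.16 against 3.08). MLL5 (KMT2E), a SET and PHD finger protein, is grouped here by family, and its H3K4 methyltransferase activity is not established. MLL5 was at 11.2 and 10.4 CPM in RIP, against 32.7 and 28.9 CPM in input (log2 fold change -1.51, and -0.58 after length correction). SETD7, a monomethyltransferase with many substrates other than histones, was at 52.6 and 53.7 CPM in RIP, against 154 and 140 CPM in input. Its log2 fold change was -1.47, and -0.51 after length correction. In these 4 genes every RIP library was below every input library.

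MLL (KMT2A), the enzyme that maintains HOX gene expression, fell least of the 8. It was at 85.3 and 78.0 CPM in RIP, against 130 and 109 CPM in input, a log2 fold change of -0.55 (SE 0.0875, edgeR adjusted p = 3.206e-05). With a length of 6.10, close to the 6.21 of MLL3, it stood highest of all 53 genes after length correction, at 1.13 (SE 0.0681, adjusted p = 8.869e-11). MLL and MLL3 therefore lay on different sides of 0 at nearly the same length, a difference that was not tested. SETD1A and SETD1B, the catalytic subunits of the SET1 complexes of trimethylation, had log2 fold changes of -0.80 and -0.81, and MLL4 was at -0.65. After length correction MLL4 (0.47), SETD1B (0.29) and MLL2 (0.19) were higher and SETD1A (0.07, adjusted p = 0.4492) did not pass. The corrected calls of MLL2 and SETD1B were lost without any 1 of the 4 libraries (adjusted p of 0.07616 to 0.1712 for MLL2 and 0.05069 to 0.1413 for SETD1B). With no count filter they were lost too, at 0.05 for MLL2 (adjusted p = 0.6176) and 0.22 for SETD1B (0.105). RefSeq lists 4 pseudogene copies of MLL3, so its share of fragments is uncertain.

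The H3K9 methyltransferases, which write the mark of heterochromatin, moved less, with 1 higher, 4 lower and 1 past neither side. The background was 38.0% higher and 39.7% lower. SUV39H1, which trimethylates pericentric heterochromatin, was at 51.2 and 53.3 CPM in RIP, against 33.8 and 36.1 CPM in input. SUV39H1 rose by 0.58 on the log2 scale (SE 0.0815, edgeR adjusted p = 8.294e-06), was at 0.48 after length correction and at -0.15 with library totals (adjusted p = 0.09684). Its paralog SUV39H2 had a log2 fold change of -0.20 (adjusted p = 0.02946), a call lost without RIP replicate 1 (adjusted p = 0.3328) or input replicate 2 (0.1049). SUV39H2 also lost it with DESeq2 (adjusted p = 0.107) and with limma on log2(FPKM + 1) (0.0644). SETDB1, the partner of TRIM28 in silencing repeats, was at -0.20 too (adjusted p = 0.03218) and lost its call without RIP replicate 2 (adjusted p = 0.3715) or input replicate 1 (0.06902). SETDB1 was at -0.18 with DESeq2 (adjusted p = 0.1146) and at -0.04 with limma on log2(FPKM + 1) (0.6181). SETDB2 fell to 5.37 and 6.69 CPM in RIP, against 14.3 and 15.8 CPM in input, a log2 fold change of -1.32.

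EHMT2 (G9a) and EHMT1 (GLP) form the enzyme of H3K9 dimethylation in euchromatin. EHMT2 was at 83.4 and 77.1 CPM in RIP, against 74.4 and 77.2 CPM in input, so that the groups overlapped (log2 fold change 0.08, SE 0.0738, edgeR adjusted p = 0.3162). With library totals EHMT2 was lower, at -0.65. EHMT1 was at -0.34, a call lost without RIP replicate 2 (adjusted p = 0.09235). After length correction EHMT2 (0.43), SUV39H1 and EHMT1 (0.29) were higher, and SETDB2 (-0.49) and SUV39H2 (-0.16) lower. The corrected call of EHMT1 was lost without RIP replicate 1 (adjusted p = 0.1885), as was that of SETDB2 (0.06528). That of SUV39H2 was lost without RIP replicate 1 (0.4219), RIP replicate 2 (0.05387) or input replicate 2 (0.1638), with a lowess span of 0.7 (0.05192) and with no count filter (0.2644). SETDB1 was then at -0.06 (adjusted p = 0.4413).

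The paralogs EZH1 and EZH2 are alternative catalytic subunits of Polycomb repressive complex 2 (PRC2), which methylates H3K27. EZH2 is known as the form of dividing cells. EZH1 was at 7.38 and 7.74 CPM in RIP, against 41.5 and 39.3 CPM in input. This was the lowest fold change of the 53 genes, -2.42 on the log2 scale (SE 0.103, edgeR adjusted p = 9.131e-12), a level 5.34 times lower in RIP. It stayed lowest after length correction, at -1.88 (SE 0.0978, adjusted p = 1.326e-11). EZH2 was at 74.7 and 78.9 CPM in RIP, against 75.5 and 78.3 CPM in input, so that the RIP values enclosed those of input. Its fold change was 0.999 (SE 0.0725 on the log2 scale, adjusted p = 0.982), and its length-corrected value was -0.12 (adjusted p = 0.1053). With library totals EZH2 was at -0.73 (adjusted p = 1.687e-07) and EZH1 at -3.15.

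All 5 H3K36 methyltransferase mRNAs were lower in RIP, against 39.7% of all tested genes. WHSC1L1 (NSD3) was at 22.7 and 24.4 CPM in RIP, against 74.9 and 62.2 CPM in input (log2 fold change -1.54, SE 0.0986, edgeR adjusted p = 8.365e-10). NSD1, a dimethyltransferase and the gene of Sotos syndrome, had a log2 fold change of -1.25, SETD2, which trimethylates H3K36 behind RNA polymerase II, one of -1.22, and ASH1L one of -1.15. WHSC1 (NSD2) had the highest FPKM of the 5 in RIP (17.9) and fell least, with 138 CPM in each RIP library, against 243 and 212 CPM in input (log2 fold change -0.73). After length correction the family divided. WHSC1 (0.27), ASH1L (0.24) and NSD1 (0.19) were higher, SETD2 (-0.11, adjusted p = 0.1478) did not pass except with no count filter (-0.18, adjusted p = 0.04359), and WHSC1L1 stayed lower at -0.99 (adjusted p = 1.041e-08). The corrected calls of ASH1L (adjusted p = 0.07047) and NSD1 (0.0950) were lost without RIP replicate 1. With no count filter they were lost as well, at 0.14 for ASH1L (adjusted p = 0.1115) and 0.09 for NSD1 (0.2791).

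Enzymes of H3K79 and H4K20 held the gene with the largest rise. SUV420H2 (KMT5C), which trimethylates H4K20 in heterochromatin, was at 60.1 and 64.6 CPM in RIP, against 22.7 and 25.4 CPM in input. SUV420H2 thus rose 2.59-fold (1.38 on the log2 scale, SE 0.0880, edgeR adjusted p = 8.349e-10), and was at 1.08 after length correction and at 0.65 with library totals (adjusted p = 6.338e-06). Its paralog SUV420H1 (KMT5B) had a log2 fold change of -0.28 (adjusted p = 0.008375), lost without RIP replicate 2 (adjusted p = 0.05352), and one of -0.11 after length correction. The call of SUV420H1 was also lost with DESeq2 (-0.26, adjusted p = 0.05501) and with limma on log2(FPKM + 1) (-0.16, adjusted p = 0.08626). SETD8 (KMT5A), which places the first methyl group on H4K20, was at 35.3 and 39.3 CPM in RIP, against 77.7 and 80.0 CPM in input. Its log2 fold change was -1.08 (SE 0.0804, adjusted p = 5.018e-09). SETD8 has a length of 0.950, near the median gene, and its value hardly moved with the correction (-1.17). RefSeq lists 3 pseudogene copies of it. DOT1L, the only known H3K79 methyltransferase, had a log2 fold change of -0.72 and of 0.29 after length correction, a corrected call lost without RIP replicate 2 (adjusted p = 0.06999).

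Among the other SETD genes 4 of 5 were lower, against 39.7% of all tested genes. SETD5, a SET protein mutated in intellectual disability, was at 24.4 and 26.6 CPM in RIP, against 128 and 109 CPM in input. Its log2 fold change was -2.22 (SE 0.0929, edgeR adjusted p = 7.777e-12), and -1.29 after length correction (adjusted p = 4.995e-11). SETD4 was at 15.3 and 15.1 CPM in RIP, against 26.1 and 22.0 CPM in input (log2 fold change -0.66, a call lost with limma on log2(FPKM + 1), adjusted p = 0.06663). Its corrected value of -1.16 rests on a length of 0.633 that differed between the groups. SETD3, the actin histidine methyltransferase, was at -0.39 (-0.58 after length correction), and SETD6, which methylates the NF-kB subunit RELA, at -0.30 (-0.29). SETD9, the shortest of these, was higher, at 9.24 and 8.73 CPM in RIP, against 4.68 and 5.56 CPM in input (log2 fold change 0.81, SE 0.154, adjusted p = 0.0001786). After length correction SETD9 was at 0.19 (adjusted p = 0.2623), or at 0.40 with no count filter, which passed (0.03032). With library totals SETD9 was at 0.08 (adjusted p = 0.627). SETD5-AS1, named as antisense to SETD5, had 304 and 298 fragments in RIP, against 498 and 468 in input. The libraries are directional, per the labels, but whether the counting used strand is not given in the sources used here, so fragments of the 2 genes cannot be told apart. The same holds for ASH1L, KDM4A and KDM5B, which have antisense genes too.

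The PRMT mRNAs were the class with mostly higher values: 5 of 7 tested genes were higher, 1 lower and 1 past neither side, with a median log2 fold change of 0.57. PRMT7, a monomethyltransferase, was at 73.3 and 74.8 CPM in RIP, against 34.8 and 35.2 CPM in input. PRMT7 thus rose 2.11-fold (1.08 on the log2 scale, SE 0.0763, edgeR adjusted p = 2.692e-09). PRMT5, which makes symmetric dimethylarginine on Sm proteins and histones, was at 219 and 226 CPM in RIP, against 135 and 131 CPM in input, a 1.67-fold rise. PRMT2, a coactivator of nuclear receptors, was at 152 and 141 CPM in RIP, against 85.1 and 88.4 CPM in input, a 1.69-fold rise. PRMT1, the main enzyme of asymmetric dimethylation, was at 307 and 299 CPM in RIP, against 196 and 211 CPM in input, a 1.49-fold rise. In these 4 genes every RIP library was above every input library.

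PRMT6, which methylates arginine 2 of histone H3, rose 1.26-fold. PRMT3, which methylates the ribosomal protein RPS2, did not pass (log2 fold change 0.10, SE 0.0758, edgeR adjusted p = 0.2266). PRMT10 (now PRMT9), which methylates the splicing factor SF3B2, fell by 0.44. The rises depended on the scaling: with library totals PRMT7 was higher (0.35, adjusted p = 0.0006207), PRMT2 (0.03) and PRMT5 (0.01) passed neither side, and PRMT1 (-0.16), PRMT6 (-0.40) and PRMT3 (-0.63) were lower. All 7 tested PRMT transcripts were shorter than the median gene (0.451 to 0.979). Short genes in general had raised values. Over all tested genes the median log2 fold change was 0.2 at lengths above 0.707 and up to 1, and 1.1 at lengths up to 0.5. After length correction PRMT7 (0.85), PRMT2 (0.54), PRMT5 (0.48) and PRMT6 (0.20) stayed higher. PRMT6 lost that call without RIP replicate 2 (adjusted p = 0.1957) or input replicate 1 (0.1939). PRMT10 was then at -0.49. PRMT1, the shortest of all 53, turned to -0.24 (SE 0.0562, adjusted p = 0.0009815), a direction that turned round with no count filter (0.03, adjusted p = 0.699). RefSeq lists 1 pseudogene copy each of PRMT1 and PRMT5, and also of KDM3A and SETD6.

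Among 16 tested demethylase mRNAs, whose median was -0.27 on the log2 scale, 2 were higher and 9 lower. The background was 38.0% higher and 39.7% lower. KDM1A (LSD1), the flavin enzyme that removes methyl groups from H3K4 in the CoREST complex, was at 256 and 261 CPM in RIP, against 204 and 208 CPM in input. It rose 1.25-fold (log2 fold change 0.32, SE 0.0665, edgeR adjusted p = 0.0003711), at 0.37 after length correction and at -0.41 with library totals (adjusted p = 2.561e-05). Its paralog KDM1B had 18.7 and 19.3 CPM in RIP, against 31.2 and 31.1 CPM in input (log2 fold change -0.71, and -0.38 after length correction). The only other riser was KDM4D, a short H3K9 demethylase, with 9.49 and 9.67 CPM in RIP, against 6.63 and 6.60 CPM in input. KDM4D had a log2 fold change of 0.53 (SE 0.138, adjusted p = 0.002389), of 0.54 after length correction and of -0.20 with library totals (adjusted p = 0.2009).

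The KDM4 genes, which act on trimethylated H3K9 and H3K36, otherwise lay near input on the TMM scale. KDM4A (-0.08, adjusted p = 0.3165) and KDM4B (0.07, adjusted p = 0.4843) did not pass edgeR's test, and KDM4C was at -0.40. With library totals KDM4A (-0.81, adjusted p = 9.261e-08) and KDM4B (-0.66, adjusted p = 6.58e-06) were lower. After length correction KDM4B was at 0.81 and KDM4A at 0.42, both higher, and KDM4C at 0.10 (adjusted p = 0.3777). All 3 tested KDM5 genes, whose products remove trimethylation from H3K4, were lower. KDM5A was at -0.91, KDM5B at -0.89 and KDM5C at -0.19. KDM5C was at 176 and 182 CPM in RIP, against 210 and 198 CPM in input (SE 0.0688, adjusted p = 0.01967), a call lost without RIP replicate 1 (adjusted p = 0.2243) or RIP replicate 2 (0.113). With a length of 2.44 it stood at 0.73 after length correction (SE 0.0572, adjusted p = 2.816e-09), and KDM5A at 0.41, while KDM5B (-0.03, adjusted p = 0.7256) did not pass.

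KDM6A (UTX), an H3K27 demethylase of the KMT2C and KMT2D complexes, fell farthest among the demethylases. It was at 18.1 and 22.1 CPM in RIP, against 59.6 and 59.3 CPM in input, a log2 fold change of -1.56 (SE 0.0966, edgeR adjusted p = 5.496e-10), with -0.80 after length correction (adjusted p = 2.520e-07). KDM6B (JMJD3), its inducible paralog, had 7.78 and 9.47 CPM in RIP, against 10.5 and 7.51 CPM in input, so that the groups overlapped (log2 fold change -0.06, SE 0.167, adjusted p = 0.7455). After length correction KDM6B was at 0.86 (adjusted p = 6.762e-05). KDM8, a Jumonji hydroxylase, overlapped too (0.09, SE 0.174, adjusted p = 0.6341). With library totals KDM6B (-0.79), KDM8 (-0.64) and KDM2B (-0.89) were all lower. The fragments on KDM6B and KDM8 were few (130 to 246 per library), and their SE were the widest of the 53 genes. KDM2A, an H3K36 demethylase, was at -0.94 (0.01 after length correction, adjusted p = 0.9197), and KDM2B, which recruits a variant Polycomb complex to CpG islands, at -0.16 (adjusted p = 0.06343, and 0.52 after length correction). The H3K9 demethylases KDM3A and KDM3B were at -0.36 and -0.44, and at 0.18 (adjusted p = 0.06912) and 0.48 after length correction. KDM3A passed that test without input replicate 1 (adjusted p = 0.007908) and with a replicate block (0.03654).

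**Figure D3:**
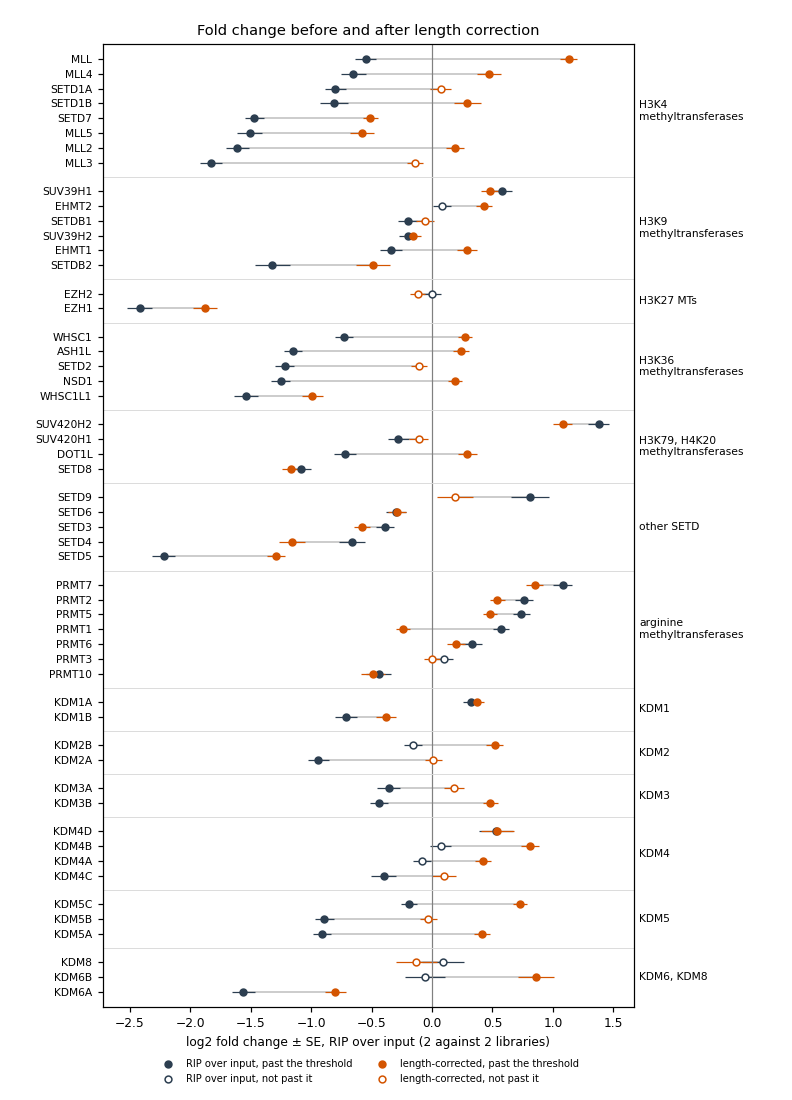
Log2 fold change of RIP over input with its SE for each tested gene, before (dark) and after (orange) length correction; filled points passed an adjusted p of 0.05. The points of the MLL, KDM4 and KDM5 genes move right with the correction, those of all PRMT genes move left, and EZH1, SETD5, SETD8, SETD4 and WHSC1L1 stay at the left.

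Per unit of transcript length the same few genes led in both RNA pools. In FPKM, the authors' scaled level per kilobase, PRMT1 came first with 234 ± 4.54 in RIP and 155 ± 10.0 in input (SD, n = 2 each). In RIP it was followed by PRMT5 (94.9 ± 1.98 FPKM), KDM1A (84.8 ± 1.06), PRMT2 (61.7 ± 3.54) and PRMT7 (30.7 ± 0.383). In input it was followed by KDM1A (67.0 ± 1.73), PRMT5 (56.1 ± 0.295), PRMT2 (33.8 ± 1.71) and WHSC1 (29.5 ± 2.23). In input WHSC1, KDM5C (28.7 ± 0.853), SETD8 (28.6 ± 0.959), EZH2 (28.5 ± 1.04) and SETD3 (27.8 ± 2.50) lay within their spread of each other. In RIP the spread of PRMT6 (29.1 ± 1.94) covered the means of PRMT7 and EZH2 (28.9 ± 1.12). PRMT7 was at place 5 in RIP and place 20 in input, whereas SETD5 was at place 41 in RIP and place 17 in input. Levels above 10 FPKM were reached by 20 genes in RIP and by 30 in input. At the low end SETDB2 was at 0.949 ± 0.161 FPKM in RIP and 2.34 ± 0.194 in input, and SETD1B at 1.13 ± 0.0239 in RIP and 1.96 ± 0.129 in input.

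**Figure D4:**
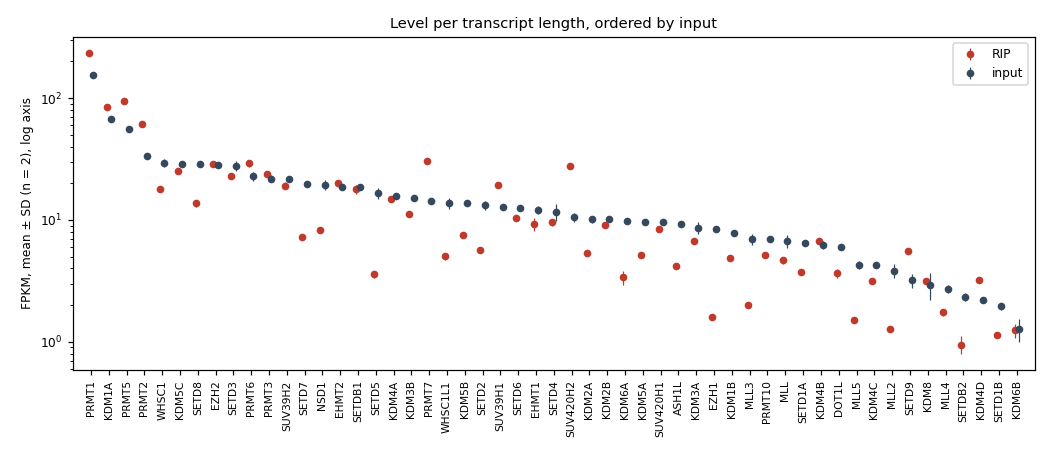
FPKM (vertical, log axis) of the 53 genes in RIP (red) and input (dark blue), mean with SD of 2 libraries, ordered by the input level. PRMT1 leads both groups, at 234 in RIP and 155 in input, and the red points of SETD7, NSD1, SETD5 and EZH1 fall well below the dark blue ones.

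The effective length also reflects which isoforms the authors' software assigned fragments to. The uncorrected fold change does not use this readout, whereas the length-corrected values and the FPKM scales do. It differed by over 5% between the groups for 5 of the 53 genes, each shorter in RIP. The share of such genes, and their direction, over all tested genes was not computed, so this count is not shown to be particular to these genes. SETD4 had lengths of 0.582 and 0.523 in RIP, against 0.684 and 0.740 in input. SETDB1 had 1.08 and 1.10 in RIP, against 1.21 and 1.18 in input. PRMT2 had 0.823 and 0.829 in RIP, against 0.889 and 0.876 in input. SETD3 (0.844 and 0.852 in RIP, against 0.919 and 0.903 in input) and SUV420H1 (1.11 and 1.16 in RIP, against 1.20 and 1.19 in input) differed too. The 5 genes were picked for this difference, so the lack of overlap between their groups adds nothing to it. No test was run on these lengths, which are estimates of the assignment and not direct counts.

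The partners of these enzymes did not all move with them. Of 14 COMPASS and MLL complex genes, which hold the H3K4 enzymes together, 6 were higher and 6 lower (median log2 fold change 0.11), and 8 and 4 after length correction. PAGR1 rose 3.02-fold (SE 0.0802 on the log2 scale, edgeR adjusted p = 5.053e-11) and stood at 1.91 after length correction, whereas BOD1L1 was at -1.68 (-0.38 after it). PRC2 subunits had 3 higher and 5 lower of 9 (median -0.34), and 2 and 4 after length correction. PHF19 was 2.61-fold higher (0.60 on the log2 scale after correction), and RBBP4 was at -1.12 but did not pass after correction (-0.06, adjusted p = 0.3524). H3K9 partners and readers had 6 higher and 7 lower of 13 (median -0.23), and 6 and 5 after length correction. TRIM28, the corepressor that recruits SETDB1, rose 2.02-fold and was at 1.02 after correction, and the HP1 alpha gene CBX5 was at -1.69 (-0.32 after it). CoREST and LSD1 partners had 2 higher and 7 lower of 11 (median -0.82), and 4 and 6 after length correction. Both named genes of that list turned round: HMG20B rose 1.27-fold and was at -0.34 after correction (adjusted p = 0.0001254), and ZMYM2 was at -1.04 and at 0.22 after it (adjusted p = 0.01983).

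The list for DOT1L and the super elongation complex had 1 higher and 5 lower of 7 (median -0.80), and 3 and 3 after length correction. Its only higher gene before correction, MLLT11, is not an established subunit of either complex. MLLT11 was 1.58-fold higher (0.30 on the log2 scale after correction) and AFF1 was at -1.95 (-0.75 after it). All 4 genes of the PRMT5 methylosome were higher (median 0.47), as was PRMT5. CLNS1A was closest to the threshold (edgeR adjusted p = 0.02676), and not all 4 calls held in every fit with a library left out. After length correction 3 were higher and CLNS1A, at 0.18 before it, was lower at -0.66 (adjusted p = 1.381e-08). The adaptor COPRS was 3.87-fold higher, and at 0.71 on the log2 scale after correction. The list of methyltransferases outside the symbol rule, such as CARM1 and the SMYD genes, had 7 higher and 8 lower of 17 (median 0.20), and 3 and 7 after length correction. FBXO11, counted there as higher before and after correction, is not an established methyltransferase. The N-terminal methyltransferase gene NTMT1 was 3.69-fold higher (0.71 on the log2 scale after correction) and PRDM2 was at -1.48 (-0.95 after it). Other Jumonji hydroxylase genes had 3 higher and 7 lower of 12 (median -0.49), and 4 and 4 after length correction. JMJD4 was 3.35-fold higher (1.58 on the log2 scale after correction), and JHDM1D, an H3K9 and H3K27 demethylase now named KDM7A, was at -1.70 (-0.51 after it). Genes of methyl donor supply had 3 higher and 7 lower of 10 (median -0.31), and 4 and 1 after length correction. AHCY, which removes the product inhibitor S-adenosylhomocysteine, rose 2.86-fold and was at 1.17 after correction. MAT2A, which makes S-adenosylmethionine, was at -0.77, and at -0.75 after it.

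These list counts depended on the scaling. With library totals COMPASS genes were 2 higher and 11 lower, PRC2 subunits 1 and 7, H3K9 partners 2 and 10, and CoREST partners 0 and 10. DOT1L partners were 0 higher and 6 lower, the methylosome 1 and 3, the methyltransferases outside the rule 2 and 12, the other Jumonji genes 2 and 9, and methyl donor genes 1 and 9. The lists are described by counts beside the background of 38.0% higher and 39.7% lower, and with few genes in each, these shares differ from it by small numbers of genes.

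**Figure D5:**
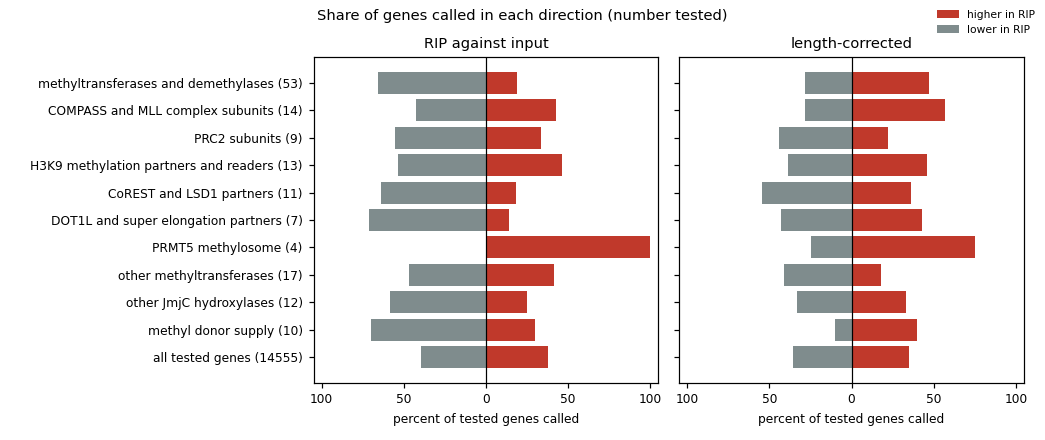
Bars give the percent of tested genes called higher (red, right) or lower (grey, left) in RIP for the 53 genes, the partner lists and all tested genes, before (left panel) and after (right panel) length correction. The 53 genes are at 18.9% higher and 66.0% lower before the correction and at 47.2% and 28.3% after it.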

How the data were processed

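One table of gene values for 4 libraries was used. The tools were Cuffdiff 2.2.1, TopHat2 2.0.13, Bowtie2 2.2.6 and cutadapt 1.5 with the hg19 build, as the submitters' processing notes list them. Annotation and strand setting: not given in the sources used here. Expected counts, as deposited, are unscaled fragment estimates by gene (98.08% whole). The deposited signal column holds these fragments divided by 1 factor per library, while FPKM, also deposited, is scaled for length and library. The table numbers replicates from 0 and the titles from 1, so which library is replicate 1 rests on that order.

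Expected counts were rounded. Genes that passed filterByExpr (minimum count 10, total 15) entered edgeR 4.0.16 under R 4.3.3 (TMM, glmQLFit, glmQLFTest, group only, Benjamini-Hochberg over 14555 genes at 0.05). SE is the log2 fold change over the square root of F. For length correction, each library's lowess trend (span 0.3) of log2 CPM on log2 effective length entered as an offset. On simulated counts for RIP against input (14555 genes), 94% of genes raised 2-fold and 89.8% of genes lowered 2-fold were recovered. Of the calls, 2.86% fell on unchanged genes (6.88% with a simulated length trend). At most 50 genes were changed at each fold, in like numbers up and down, whereas 77.7% of the real genes were called. These rates therefore do not carry over to the real data. The libraries of a group were not duplicates (chi-square per gene of 3.40 in RIP and 6.17 in input), and all 4 were kept. RefSeq (GRCh38.p14) gave current symbols and pseudogene copies only, with 54 genes matched to 1 entry and 2 to several.

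The genes and lists were chosen with earlier results of these data known. Values in every library are given for called genes of 50 or more mean fragments and no overlap, among the 8 largest changes in each direction or the 6 largest after length correction. Other genes are given by fold change, some with library values that were added after they were seen. Of each partner list the gene with the lowest p in each direction is named. CLNS1A was named after its values were seen. Alternatives were library totals, DESeq2 1.42.0, no count filter, removal of the 10 most abundant RIP genes, limma 3.58.1 on log2(FPKM + 1) and log2(FPKM + 0.1), a lowess span of 0.7, a replicate block and each library left out.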

Additional observations from a re-analysis of the deposited data

How the results depend on the processing

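The replicate numbers do not pair the libraries by the labels, and deviations of libraries with the same number had a correlation of 0.04 over 14555 genes. With a replicate block 10 of the 53 genes were higher and 35 lower, as without it, and 26 and 15 after length correction. Leaving out 1 library gave 10 higher in each case and 31 to 34 lower, and 20 to 23 higher and 13 to 15 lower after length correction. Over all genes these ranges were 5140 to 5525 higher and 5229 to 5579 lower, and 4640 to 4960 and 4441 to 4919 after length correction. Library totals gave 2 higher among the 53 genes, and 2479 higher and 9539 lower over all genes, against 5531 and 5783 with TMM factors. They turned EHMT2 to -0.65, KDM1A to -0.41, KDM4B to -0.66, KDM4D to -0.20, KDM8 to -0.64, PRMT1 to -0.16, PRMT3 to -0.63, PRMT6 to -0.40 and SUV39H1 to -0.15. EZH2 lay at 0 and turned to 0.01 with DESeq2, 0.02 on both FPKM scales, 0 with no count filter, 0.04 without RIP replicate 1 and 0.04 without input replicate 2. KDM4B turned to 0 and KDM8 to -0.13 without input replicate 2. KDM6B turned to 0.08 without RIP replicate 1 and to 0.20 without input replicate 1. After length correction PRMT1 turned to 0.03 with no count filter. KDM2A turned to -0.05 with no count filter, to 0 with library totals, and to -0.03 without RIP replicate 1 and without input replicate 2. After length correction KDM5B turned to 0.01 without RIP replicate 1 and 0.04 without input replicate 2, KDM8 to 0.18 and SETD1A to -0.02 without input replicate 1, and SETDB1 to 0.02 without RIP replicate 2. PRMT3 turned to -0.01 with library totals, -0.01 without RIP replicate 1 and -0.05 without input replicate 1. Over the 4 single omissions these ranged from -0.04 to 0.04 (EZH2), 0 to 0.16 (KDM4B), -0.26 to 0.20 (KDM6B) and -0.13 to 0.39 (KDM8), and after length correction from -0.03 to 0.05 (KDM2A), -0.1 to 0.04 (KDM5B), -0.38 to 0.18 (KDM8), -0.05 to 0.05 (PRMT3), -0.02 to 0.16 (SETD1A) and -0.14 to 0.02 (SETDB1). The cause was not tested. Of the 35 lower calls 29 held under every alternative run, as did 2 of the 10 higher ones, and 18 of 25 higher and 12 of 15 lower after length correction. Before correction, library totals moved all of these fold changes down, which can undo higher calls but not lower ones. The held shares of higher and lower calls therefore cannot be compared. Under every alternative other than library totals, 10 of the 53 genes were higher. DESeq2, limma and removal of the 10 most abundant genes were not run with length correction. Its trend takes up the library scaling, and library totals left 51 of the 53 corrected results unchanged. The counts of held calls before and after correction therefore cannot be compared. Low counts limit precision: KDM8, KDM6B, SETD9, SETDB2 and KDM4D had the widest SE (0.138 to 0.174).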
